A study of Mus musculus with 26 samples.

Results

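The effect of castration on ribosome-bound RNA of gonadotropin-releasing hormone (GnRH) neurons was read from 7 pull-down libraries, of 26 libraries in the whole series. These are the libraries whose sample identifiers mark them as pull-downs of orchidectomized males (3 pools) or intact males (4 pools). All mice were offspring of GnRH-Cre males, homozygous for the recombinase, and females homozygous for a floxed-stop L10a-GFP allele, so that Cre-expressing cells carry a GFP-tagged ribosomal protein. They were adults of 55 to 165 days, and punches of the preoptic area of the hypothalamus were pooled. The 2 groups share genotype, sex, tissue and age range and differ in orchidectomy. Intact replicates 0 and 1 held 7 mice each, and intact replicates 2 and 3 and all gonadectomized replicates 5 mice each. The time from surgery to collection is not given in the sources used here, and per the labels serum luteinizing hormone was measured as a check of steroid status. Tagged ribosomes mark every cell in which the Gnrh1-driven Cre was ever active, and the pull-down enriches those cells without isolating them. The 7 matched supernatants, RNA left after the pull-down, and 6 female pull-downs (3 intact in diestrus, 3 ovariectomized) served as comparisons.

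GnRH neurons are the final common path by which the brain drives the pituitary gonadotropins. Testosterone restrains them through negative feedback, largely through other neurons, among them kisspeptin neurons, because GnRH neurons themselves carry little estrogen receptor alpha. After castration this restraint is lifted and GnRH and luteinizing hormone secretion increase. RNA on tagged ribosomes is a measure of which transcripts are engaged in translation, not of protein or of secretion.

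Values below are counts per 1000000 (CPM) on library sizes scaled by TMM, which are not corrected for gene length and are therefore compared between libraries and not between genes. Where a gene's values are listed, intact pools come in the order of replicates 0, 1, 2 and 3 and gonadectomized pools in the order 0, 1 and 2. Log2 differences are gonadectomized minus intact. In bulk RNA, fewer cells of a type and less RNA per cell cannot be told apart. The 7 libraries held between 32993945 and 47073710 counts. The Y-linked genes Ddx3y, Eif2s3y and Uty were detected above 2 CPM in all 7 libraries, Kdm5d, also Y-linked, lay between 4.91 and 9.28 CPM except at 0.246 CPM in gonadectomized replicate 1, and Xist stood at 0.43 CPM or less.

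The intact pools were not alike. Intact replicates 0 and 1 carry library numbers 9 and 10, whereas the other 5 libraries are numbered 26 to 30, so these early intact pools have no gonadectomized counterpart. Gnrh1 (chr14:67745181-67749439, mm10), which encodes the GnRH precursor, stood at 17194, 20484, 4567 and 4477 CPM in intact pools and at 4377, 7329 and 8648 CPM in gonadectomized pools. The early intact pools were far above the other 5, and within those 5 gonadectomized replicates 1 and 2 were above both later intact pools while replicate 0 was level with them. Across the 7 libraries the log2 difference of Gnrh1 was -0.78 ± 0.59 (SE; edgeR, adjusted p 0.665), and against the later intact pools alone it was 0.58 ± 0.25 (adjusted p 0.803). The direction therefore differed with the choice of intact pools, and neither value passed. On log2 CPM of 14094 genes, the first principal component (39.1% of the variance) put the early intact pools at -53.8 and -57.1 and the other 5 between 15.2 and 30.8. Whether library number, pool size or the composition of the pull-down accounts for this was not tested. Differences below are against all 4 intact pools unless the 2 later ones are named, and both are given for some genes.

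**Figure D1:**
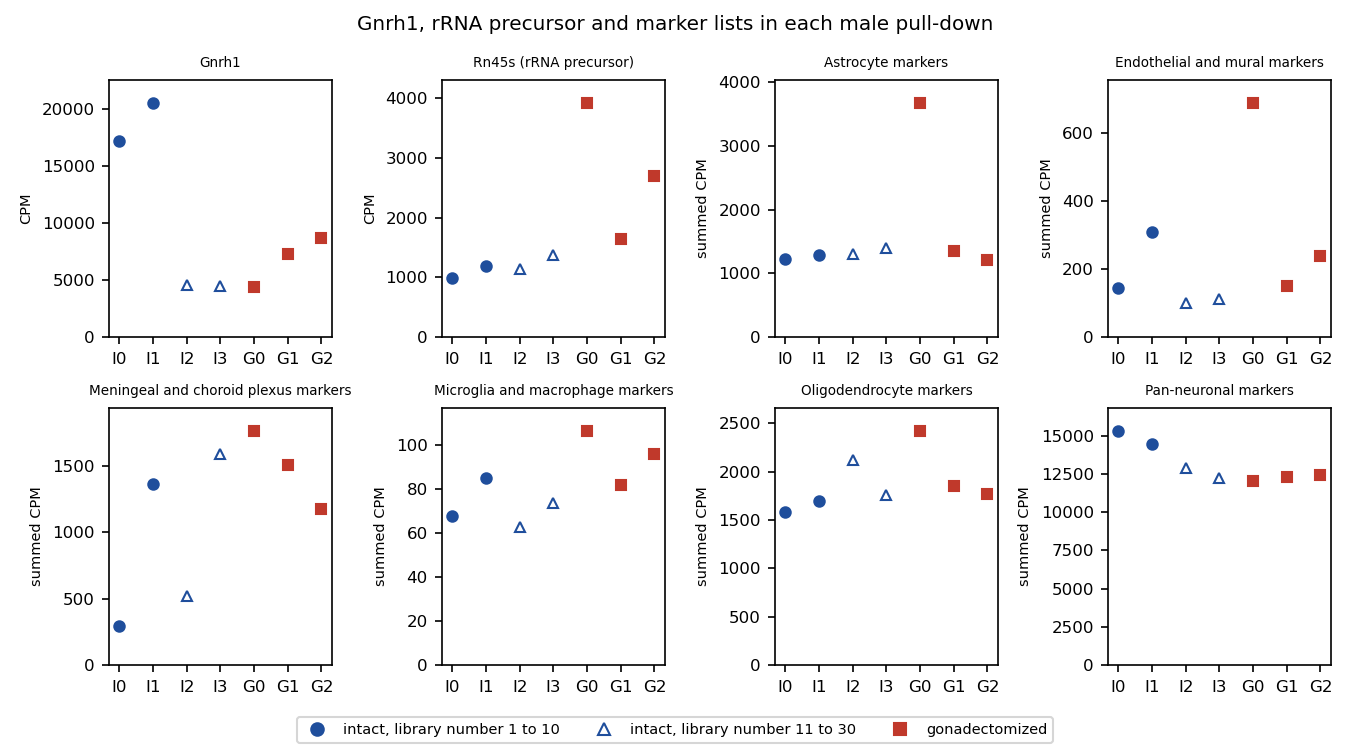
Gnrh1 and the ribosomal RNA precursor gene Rn45s (CPM) and summed CPM of 6 marker lists (y axes, linear from 0) in each male pull-down library. On the x axis, I is intact and G gonadectomized, with the replicate number. The early intact pools stand highest in Gnrh1, and gonadectomized replicate 0 stands highest in Rn45s (3914 CPM) and in astrocyte (3667 summed CPM) and endothelial and mural markers (687).

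No gene passed an adjusted p of 0.05 in the edgeR quasi-likelihood test of castration in the pull-down (0 of 16160 tested, 0% called), with the lowest adjusted p, 0.389, at Gata2. At an unadjusted p under 0.05 there were 1509 genes (9.34%), 714 higher (4.42%) and 795 lower (4.92%). limma voom called 0 genes (1689 at an unadjusted p under 0.05, 10.5%) and DESeq2 called 24 (0.149%), 13 higher and 11 lower. Of these 24, 12 averaged at least 5 CPM, and in 9 every library of 1 group was under 0.2 CPM. Against the later intact pools alone, edgeR called 0 of 17027 (1040 at an unadjusted p under 0.05, 6.11%; 4.01% higher and 2.1% lower), and DESeq2, a fit added after seeing the data, called 44 (0.258%), 38 of them higher. The calls of both DESeq2 fits shared 7 genes. Pull-down replicates varied widely: the biological coefficient of variation common to all genes was 0.560, and 0.181 in supernatants.

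The 10 genes with the lowest p in each direction, among those averaging at least 5 CPM, are described next as genes that did not pass (adjusted p 0.466 to 0.525, edgeR). They were chosen by this contrast, so that their separation between groups is a description. In all 20 the gonadectomized pools lay outside the range of all 4 intact pools. For comparison, 767 of 16160 genes (4.75%) lay wholly above and 769 (4.76%) wholly below. Each kept its direction under every alternative setting that was run. With the groups wholly apart, leaving out pools could hardly reverse a direction, so this adds no separate support. Against the later intact pools the log2 differences were at least 0.70 in size among the higher and 0.36 among the lower genes.

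Among the higher genes, Rn45s, the gene of the ribosomal RNA precursor, stood at 995, 1191, 1141 and 1382 CPM in intact pools. In gonadectomized pools it stood at 3914, 1640.1 and 2700.1 CPM. Its log2 difference was 1.22 ± 0.22 (SE), the lowest p of the 20. Without gonadectomized replicate 1, the pool nearest to the intact ones, it passed in edgeR (1.49, adjusted p 0.0157). The difference was smaller without gonadectomized replicate 0, as given below. Rn45s comes from a repeated locus, so that its count depends on how reads mapping to several places were treated. Reads of the precursor and of mature ribosomal RNA were not told apart. In females Rn45s was lower in pull-downs than in supernatants (log2 ratio -1.12, edgeR adjusted p 0.00196). Ednrb, the endothelin B receptor (chr14:103814625-103844402), stood at 12.98, 9.89, 11.02 and 8.82 CPM in intact pools and at 52.9, 27.95 and 18.2 CPM in gonadectomized pools. All 3 gonadectomized pools were above all intact pools, with replicate 0 highest, and the difference was 1.63 ± 0.35, or 1.12 without replicate 0. Zfp862, a zinc finger gene, stood at 15.01, 6.10, 11.4 and 12.8 CPM against 26.9, 35.05 and 30.2 CPM (1.44 ± 0.31). Tmem123, a membrane mucin-like gene (chr9:7764041-7794333), stood at 4.32, 7.95, 3.44 and 9.25 CPM against 18.4, 22.4 and 20.1 CPM (1.70 ± 0.37). For both, the 3 gonadectomized pools lay close together and gonadectomized replicate 0 was not the highest.

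Calu encodes calumenin, a calcium-binding protein of the secretory pathway (chr6:29348069-29377110). It stood at 22.1, 24.2, 18.7 and 25.1 CPM in intact and 55.9, 36.1 and 44.4 CPM in gonadectomized pools (1.01 ± 0.22). Slc38a2, a sodium-coupled transporter of neutral amino acids, stood at 37.5, 38.4, 69.8 and 93.0 CPM against 115, 153 and 130.5 CPM. Its early intact pools were lowest, and its difference was 1.16 ± 0.27 against all intact pools and 0.70 ± 0.19 against the later ones. The remaining higher genes were Cldn12, a claudin (1.13), Itfg3 (1.08), Sidt2, a lysosomal membrane protein gene (0.81), and the collagen gene Col1a2 (1.54). Against the later intact pools these were 0.77, 0.92, 0.75 and 1.40, and the early intact pools of Cldn12 were the lowest. Col1a2 is also one of the meningeal markers, whose summed level ran from 291 to 1589 CPM in intact and from 1176 to 1764 CPM in gonadectomized pools. Its own level was 39.4 CPM in gonadectomized replicate 0 and 22.8 and 21.6 CPM in the other two. DESeq2 called the first 6 of these 10 genes.

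**Figure D2:**
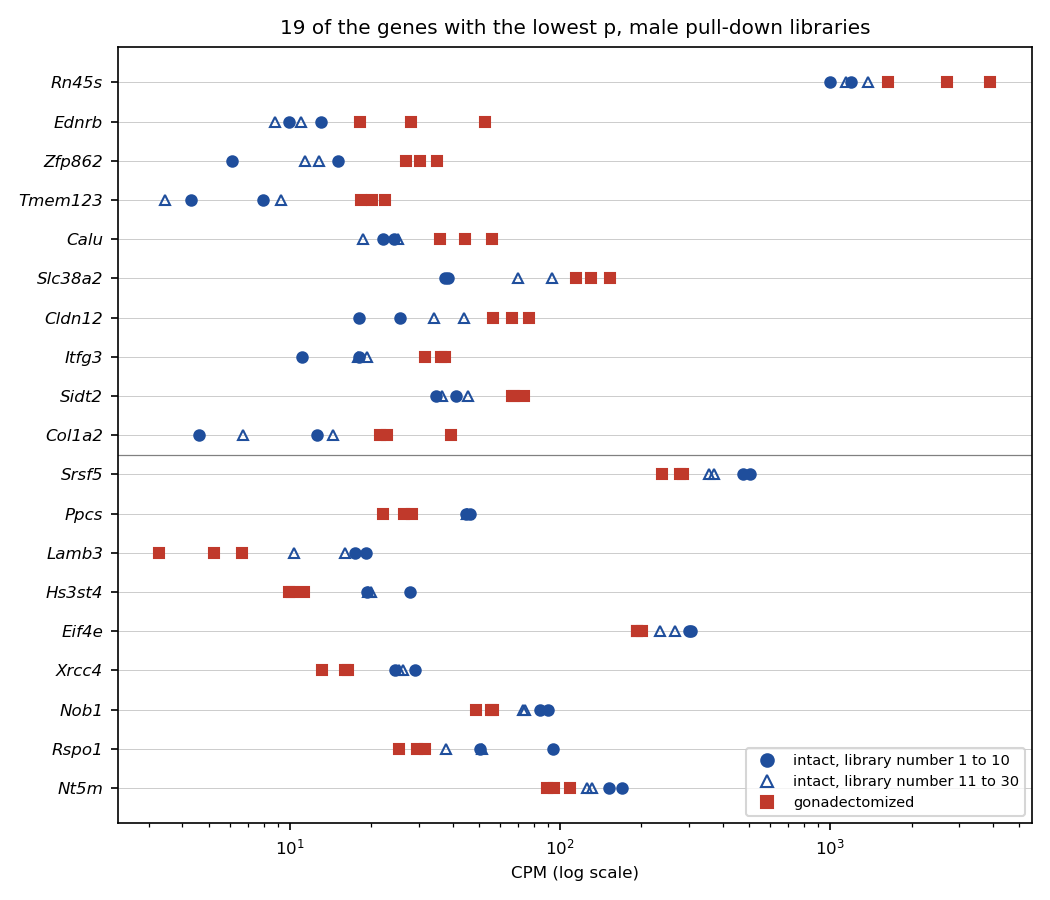
CPM (x axis, log scale) of 19 of the genes with the lowest p in each male pull-down library, the 10 higher after castration above the line and 9 lower beneath it. Symbols mark early intact, later intact and gonadectomized pools; in each gene the 3 gonadectomized pools lie on 1 side of all 4 intact pools.

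Of the lower genes, Srsf5, a splicing factor of the SR family (chr12:80945504-80950507), stood at 475, 505, 371 and 354 CPM in intact and 285, 277 and 238 CPM in gonadectomized pools. The early intact pools were highest, and the difference of -0.68 ± 0.15 (SE) was -0.45 ± 0.12 against the later ones. Ppcs, an enzyme of coenzyme A synthesis (chr4:119418530-119422420), was nearly level over intact pools at 45.0, 46.6, 45.3 and 45.2 CPM and stood at 22.1, 28.3 and 26.3 CPM after castration. Its difference was -0.83 ± 0.19, the same (-0.83 ± 0.21) against the later intact pools. Lamb3, a laminin subunit of basement membranes (chr1:193207699-193343878), stood at 17.4, 19.2, 10.3 and 16.02 CPM against 5.23, 3.28 and 6.66 CPM. It had the largest difference of the lower 10 (-1.64 ± 0.40).

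Eif4e, the cap-binding protein that starts translation, stood at 301, 306, 235 and 266 CPM in intact and 193, 193 and 200.5 CPM in gonadectomized pools (-0.50 ± 0.13). Hs3st4, a heparan sulfate sulfotransferase gene, stood at 19.3, 27.9, 19.5 and 20.03 CPM against 9.89, 10.2 and 11.2 CPM (-1.05 ± 0.26). The 3 gonadectomized pools were nearly identical in both genes and below every intact pool. Others of the lower set were Xrcc4, a DNA end-joining factor (-0.79), Nob1, a ribosome assembly factor (-0.58), Rspo1, a secreted activator of Wnt signalling (-1.02; -0.63 ± 0.21 against the later pools), and Nt5m, a mitochondrial nucleotidase (-0.57). Differences from the later intact pools were -0.36 for Eif4e, -0.93 for Hs3st4, -0.76 for Xrcc4, -0.46 for Nob1 and -0.40 for Nt5m. Srsf5, Ppcs, Lamb3, Hs3st4, Eif4e and Xrcc4 were called by DESeq2.

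Glucocorticoid and progesterone receptors and close relatives bind DNA as pairs at the half-site AGAACA, which reads as TGTTCT on the opposite strand, and the 250 bases upstream of the start that RefSeq (GRCm38.p6) lists for each gene were searched for either form. RefSeq had an entry for 16 of the 20 genes. These starts need not be those of the GENCODE spans given above, and the windows of Ednrb, Col1a2, Lamb3 and Nt5m, among others, lie within those spans. Ednrb and Ppcs, shown because they held a match and lie in opposite directions, were 1 of 7 higher and 1 of 9 lower genes. Of 11317 tested genes with an entry, 1519 (13.4%) hold the half-site in any entry, as do 5284 of all 32851 promoter entries (16.1%), so that the named genes lay near the share of all genes. The 2 promoters are printed 5′ to 3′ on the gene's strand with the half-site in capitals; both genes lie on the minus strand, Ednrb's window at chr14:103843702-103843951 and that of Ppcs at chr4:119422421-119422670.
Ednrb: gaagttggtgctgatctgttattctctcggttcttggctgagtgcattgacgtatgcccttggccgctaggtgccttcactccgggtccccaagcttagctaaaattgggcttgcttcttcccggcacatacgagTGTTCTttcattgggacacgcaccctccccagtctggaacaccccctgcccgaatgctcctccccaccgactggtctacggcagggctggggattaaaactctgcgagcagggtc
Ppcs: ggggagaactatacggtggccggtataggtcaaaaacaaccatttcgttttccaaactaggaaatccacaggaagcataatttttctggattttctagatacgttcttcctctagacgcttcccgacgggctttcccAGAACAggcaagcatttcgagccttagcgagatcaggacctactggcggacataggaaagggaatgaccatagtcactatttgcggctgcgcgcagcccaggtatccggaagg

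Genes known to respond to sex steroids or glucocorticoids in the hypothalamus were more often lower than higher after castration. Of 30 tested, 5 were lower and 0 higher at an unadjusted p under 0.05, against 4.92% lower of all genes, with a median difference of -0.20 (0.01 over all genes), and none passed after adjustment. Against the later intact pools 5 were also lower, against 2.1% of all genes, with Irs4, an insulin receptor substrate, in the place of Cited1. In the supernatants of the same pools the list's median was -0.14, so the lower median was not particular to the pull-down. Kiss1, the kisspeptin precursor (chr1:133321875-133329901), stood at 2.90, 3.17, 2.00 and 2.85 CPM in intact and 1.42, 0.23 and 0.32 CPM in gonadectomized pools. These are low levels, and each gonadectomized pool was below each intact one (-2.07 ± 0.61). Kiss1 was not enriched in pull-downs over supernatants of females (log2 ratio 0.09, edgeR adjusted p 0.863). Its castration difference was nearly the same in both male fractions (interaction -0.03 ± 0.67), so it is not particular to the pull-down. Nts, the neurotensin precursor, stood at 85.6, 108, 56.7 and 57.7 CPM against 47.1, 44.3 and 28.6 CPM (-0.94 ± 0.27; -0.52 ± 0.22 against the later pools). Fkbp5, a receptor cochaperone and classical target of androgens and glucocorticoids (chr17:28399094-28517527), stood at 37.6, 33.9, 52.7 and 46.0 CPM against 31.4, 24.1 and 30.3 CPM. Here the later intact pools were the higher ones, and the difference was -0.57 ± 0.25 against all intact pools and -0.79 ± 0.22 against the later ones.

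Cyp19a1, the aromatase that turns testosterone into estradiol, was at 2.61, 0, 0.97 and 1.55 CPM in intact and 0.087, 0 and 0 CPM in gonadectomized pools. One early intact pool was at 0 as well, so the groups overlapped. Cited1, a transcriptional coregulator, gave -0.84 ± 0.31 against all intact pools but -0.24 ± 0.22 against the later ones. Gal, the galanin precursor, stood at 129, 147, 56.7 and 60.1 CPM against 46.6, 64.8 and 68.8 CPM and did not differ from the later intact pools beyond its error (0.04 ± 0.23).

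Receptors for steroids and their coregulators showed 1 higher and 2 lower of 24 tested, where 4.42% of all genes were higher and 4.92% lower at an unadjusted p under 0.05. Nr3c1, the glucocorticoid receptor, stood at 33.1, 26.01, 58.2 and 57.7 CPM in intact and 76.0, 66.6 and 71.0 CPM in gonadectomized pools (0.70 ± 0.25; 0.29 ± 0.16 against the later pools). The gonadectomized pools were above all intact ones, and the early intact pools were lowest. Esr1, estrogen receptor alpha, stood at 6.47, 1.05, 7.55 and 8.58 CPM against 7.40, 7.37 and 1.33 CPM. It was low in all pools and overlapped between groups. Pgr, the progesterone receptor, stood at 31.9, 37.5, 42.0 and 40.2 CPM against 28.6, 29.3 and 40.6 CPM (-0.21 ± 0.26).

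Among 23 genes known from GnRH neurons, 0 were past an unadjusted p of 0.05 in either direction, with a median of -0.14 against all intact pools and 0.16 against the later ones. Kiss1r, the kisspeptin receptor, stood at 52.9, 53.3, 23.7 and 34.9 CPM in intact and 34.9, 41.0 and 47.7 CPM in gonadectomized pools, and the LIM-homeobox gene Isl1 ran from 138 to 195 CPM against 135 to 172 CPM. Kiss1r thus lay below the early intact pools, with gonadectomized replicate 0 level with later intact replicate 3 and the others above both later ones. Isl1 overlapped between groups. Six6, a homeobox gene, stood at 176, 127, 79.1 and 68.1 CPM against 69.0, 85.6 and 93.2 CPM. As with Gnrh1, the early intact pools were the highest.

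Genes of protein folding in the endoplasmic reticulum, which prepares hormone precursors for secretion, differed in direction between the 2 choices of intact pools. Of 24 genes of the chaperone and unfolded protein response list, 10 were higher and 0 lower at an unadjusted p under 0.05 against the later intact pools (4.01% of all genes were higher), with a median of 0.48. In 13 of 24, all gonadectomized pools lay above both later intact pools, against 12.1% of all genes. Against all 4 intact pools, 0 were higher and 1, Ddit3, was lower, with a median of -0.11. None passed after adjustment in edgeR.

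Hspa5, the main chaperone of the endoplasmic reticulum (chr2:34771970-34777547), stood at 421, 408, 156 and 173 CPM in intact and 293, 261 and 249.8 CPM in gonadectomized pools. The gonadectomized pools thus lay between the 2 kinds of intact pool, with a difference of 0.70 ± 0.14 from the later ones (edgeR adjusted p 0.803). P4hb, a protein disulfide isomerase, stood at 128, 143, 78.4 and 69.8 CPM against 110, 120 and 125 CPM (0.67 ± 0.16 from the later pools). DESeq2 on the later libraries called 2 members of the list, Hspa5 and P4hb. Canx (0.58), Pdia3 (0.59) and Manf (0.67), which act in folding, disulfide formation and the stress response, took the same place between early and later intact pools. Ddit3, a transcription factor of prolonged endoplasmic reticulum stress, stood at 79.3, 64.7, 44.2 and 50.2 CPM against 36.0, 37.3 and 38.7 CPM. It lay below every intact pool, opposite to the chaperones (-0.67 ± 0.22; -0.34 ± 0.19 against the later pools).

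Peptide processing enzymes and granins, which fill dense-core vesicles, had the same shape. Against the later intact pools 8 of 20 were higher and 0 lower at an unadjusted p under 0.05 (4.01% and 2.1% of all genes), with a median of 0.33, and against all 4 intact pools 0 and 0, with a median of 0.00. Scg5, the 7B2 chaperone of prohormone convertase, stood at 757, 661, 228 and 221 CPM in intact and 300.1, 308 and 291 CPM in gonadectomized pools. Cpe, carboxypeptidase E, which trims peptide precursors, stood at 553, 694, 397 and 397 CPM against 1044, 550.2 and 518 CPM. Ptprn2, a dense-core vesicle membrane protein, was at 57.7, 48.6, 22.6 and 28.2 CPM against 44.8, 62.4 and 42.0 CPM. In these 3 genes every gonadectomized pool was above both later intact pools, and in Cpe gonadectomized replicate 0 alone was also above both early ones.

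The early intact pools, highest in Gnrh1, stood above the later ones in both lists, with median log2 ratios to the later intact mean of 0.86 and 0.79 for the chaperone list and 0.44 and 0.42 for the granin list. In gonadectomized replicates 0, 1 and 2 these medians were 0.54, 0.41 and 0.28 for the chaperones and 0.47, 0.09 and 0.24 for the granins. Gonadectomized replicate 0, whose Gnrh1 level was no higher than in the later intact pools, had the highest of the gonadectomized medians in both lists. That replicate also stood highest in astrocyte and in endothelial and mural markers, described below. Without it, 7 of 24 chaperone genes and 4 of 20 granin genes were higher against the later pools (3.55% of all genes), with medians of 0.37 and 0.14. The part of pull-down composition in these differences was not tested.

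**Figure D3:**
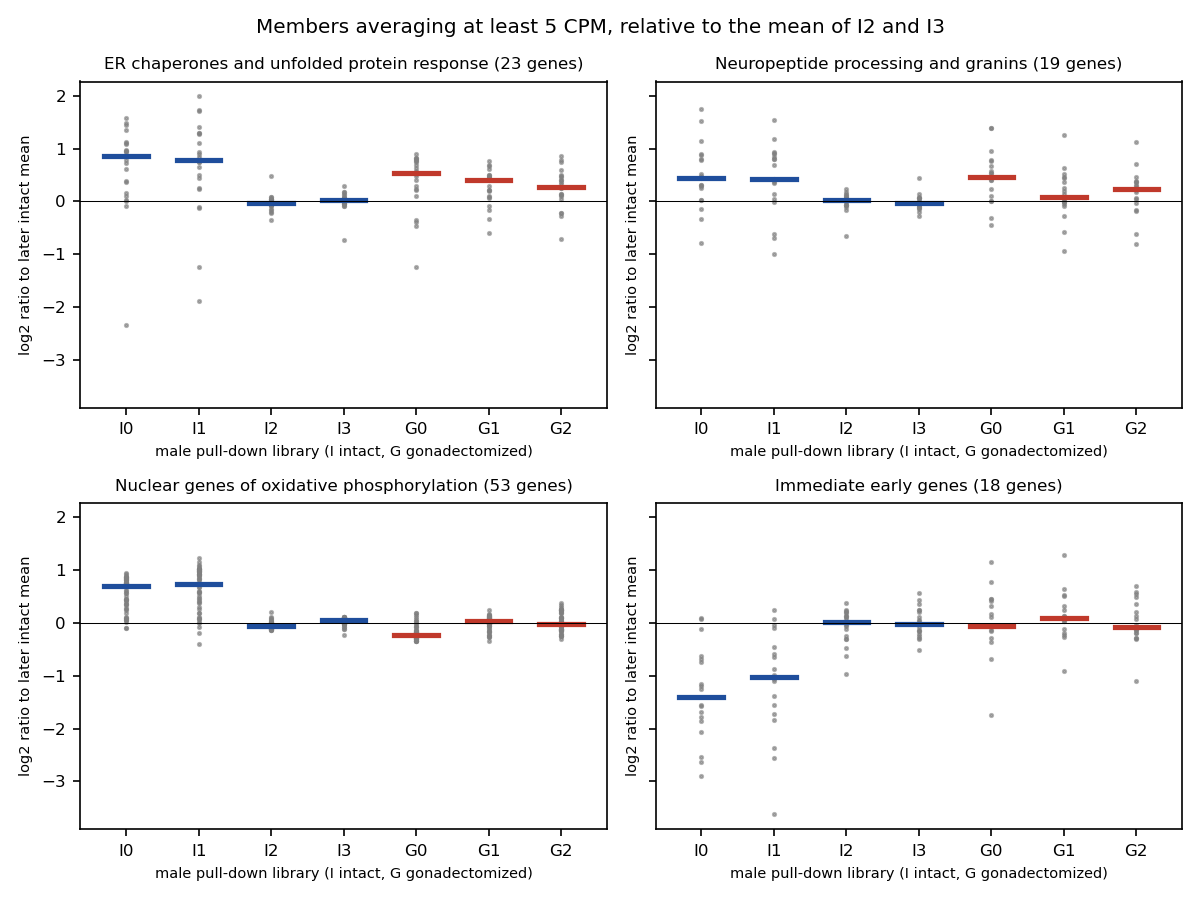
Log2 ratio of CPM + 1 to the mean of the 2 later intact pools plus 1 (y axis) for members of 4 lists averaging at least 5 CPM (grey points) in each male pull-down (x axis), with the library's median as a bar. Chaperone medians are 0.86 and 0.79 in the early intact pools and 0.28 to 0.54 in gonadectomized pools. Those of oxidative phosphorylation and immediate early genes set the early intact pools furthest apart.

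By their medians, the lists described next separated mainly the early intact pools from the rest. Some members also set gonadectomized pools apart from the later intact ones. Among translation factors, every gonadectomized pool was below both later intact pools in 7 of 30, against 11.5% of all genes. Nuclear-encoded subunits of the respiratory chain and ATP synthase were lower after castration in 15 of 53 at an unadjusted p under 0.05 (4.92% of all genes), with a median of -0.42. Against the later intact pools 1 of 53 was lower (2.1% of all genes), and the median was -0.04. Ndufs3, of complex I, showed this at 301, 306, 239 and 231 CPM in intact and 197, 208 and 198 CPM in gonadectomized pools, where the gonadectomized pools were also below the later intact ones (-0.42 ± 0.14; -0.23 ± 0.12 against the later). Translation factors other than Eif4e gave Eif2b5 (-0.41), Eef1a2 (-0.50) and Eef1g (-0.47) among 4 lower of 30 (4.92% of all genes), and 2 lower against the later pools (2.1% of all genes), where Eef1g stood at -0.12 and Eif2b5 at -0.21.

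Immediate early genes, which neurons transcribe soon after activity, were higher in 3 of 23 (4.42% of all genes), with a median of 0.56 against all intact pools and 0.06 against the later ones. Fos stood at 9.87, 11.3, 50.7 and 74.1 CPM in intact and 67.7, 54.3 and 72.0 CPM in gonadectomized pools. Only the early intact pools stood apart. Nr4a1, an orphan nuclear receptor gene (chr15:101254269-101274795), stood at 15.1, 16.7, 56.3 and 59.3 CPM against 77.7, 83.8 and 82.3 CPM. Its gonadectomized pools were above all intact pools, and the difference was 1.14 ± 0.46 or, against the later pools, 0.49 ± 0.23. Atf3, a stress-induced transcription factor, was at 0.072, 0.026, 0.083 and 0.72 CPM in intact and 4.86, 2.56 and 1.84 CPM in gonadectomized pools, separated but low.

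Channels and receptors that set GnRH neuron firing gave a few genes with groups apart. Every gonadectomized pool lay above every intact one in 4 of 33 potassium channel genes. The same held for 2 of 37 calcium, sodium, HCN and TRP channel genes, near the share of all genes (4.75%). In both lists 0 genes lay wholly below (4.76% of all genes). Potassium channels were higher in 3 of 33 (9.09%, against 4.42% of all genes) and lower in 0. With only the later intact pools, every gonadectomized pool lay above both in 4 of 33, near the share of all genes (12.1%). In 1 of 33 every gonadectomized pool lay below both (11.5% of all genes). The list's median was 0.25 against all intact pools and 0.17 against the later ones. Kcnk3, the acid-sensitive leak channel TASK-1 (chr5:30588170-30625271), stood at 24.7, 21.9, 27.5 and 26.7 CPM in intact and 33.3, 53.6 and 49.7 CPM in gonadectomized pools. The intact pools were level across library numbers, and the difference was 0.85 ± 0.24, or 0.74 ± 0.29 against the later pools. Of 37 calcium, sodium, HCN and TRP channel genes, 3 were higher and 1, Cacnb1, lower (4.42% and 4.92% of all genes). The sodium channel gene Scn8a stood at 37.0, 32.8, 48.4 and 38.1 CPM against 61.4, 60.9 and 62.2 CPM (0.65 ± 0.22), a gap with no overlap. Cacna2d1, a calcium channel subunit, also lay above all intact pools, at 18.3, 20.7 and 17.6 CPM against 11.3 to 13.3 CPM.

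GABA acts on GnRH neurons through GABA-A receptors and is excitatory in many of them because chloride is held high. GABA-A receptor and chloride transporter genes were higher in 3 of 16 (4.42% of all genes) and lower in 0. Gabrb2, a receptor subunit gene, stood at 41.9, 45.1, 58.6 and 59.8 CPM in intact and 96.4, 62.6 and 67.0 CPM in gonadectomized pools (0.55 ± 0.22; 0.34 ± 0.20 against the later pools), with no overlap. Slc12a2, the importer NKCC1 that loads chloride, stood at 14.3, 9.50, 22.04 and 15.7 CPM against 38.1, 36.3 and 21.6 CPM (1.06 ± 0.37), with gonadectomized replicate 2 just under the highest intact pool. Gonadectomized replicate 0 was the highest library in both genes, and without it 1 of 16 was higher (3.51% of all genes). Ionotropic glutamate receptor genes were past an unadjusted p of 0.05 in 0 of 17.

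Of 36 neuropeptide and amine receptor genes, 2 were higher and 1 lower, near the shares of all genes (4.42% and 4.92%). Adra2a, the alpha-2A adrenergic receptor, stood at 11.6, 20.1, 16.6 and 12.4 CPM against 39.3, 25.4 and 21.1 CPM (0.91 ± 0.35), and Adcyap1r1, the receptor of the peptide PACAP, gave 0.59 ± 0.20. Adra2a separated the groups, and Adcyap1r1 overlapped by 1 intact pool. Tacr1, the substance P receptor, stood at 2.29, 10.8, 12.3 and 9.93 CPM against 13.3, 17.7 and 16.4 CPM, above all intact pools but with a wide error (0.84 ± 0.59). Among genes mutated in hypogonadotropic hypogonadism, Plxna1, a semaphorin receptor of GnRH neuron migration, stood at 43.9, 56.2, 54.9 and 67.1 CPM against 83.0, 96.5 and 83.8 CPM (0.66 ± 0.19; 0.52 ± 0.21 against the later pools). That list had 3 higher (Plxna1, Flrt3 and Il17rd) and 1 lower (Kiss1) of 34, against 4.42% and 4.92% of all genes.

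Gonadectomized replicate 0 stood apart in markers of other cell types. Astrocyte markers were higher in 8 of 20 and endothelial and mural markers in 10 of 23, with medians of 0.69 and 1.68. Without gonadectomized replicate 0, the higher counts were 0 of 20 and 1 of 23 (3.51% of all genes were higher) and the medians 0.06 and 0.60. Summed endothelial and mural markers stood at 144, 308, 100.2 and 113 CPM in intact and 687, 149.6 and 239 CPM in gonadectomized pools, so that intact replicate 1 was second to gonadectomized replicate 0. Gfap, the astrocyte filament gene, stood at 136, 172, 236 and 297 CPM in intact and 1384, 301 and 229 CPM in gonadectomized pools. Pecam1, an endothelial adhesion gene, stood at 1.52, 0.65, 2.05 and 0.82 CPM against 24.6, 1.58 and 3.86 CPM. In Gfap the other 2 gonadectomized pools lay within or just above the intact range, and in Pecam1 replicate 2 also lay above it. Summed microglial markers ran from 62.8 to 85.1 CPM in intact and 81.9 to 106 CPM in gonadectomized pools, oligodendrocyte markers from 1585 to 2123 and from 1770 to 2419 CPM, and pan-neuronal markers from 12240 to 15310 and from 12060 to 12410 CPM. Summed ependymal markers ran from 266 to 328 and from 261 to 396 CPM. Defining markers at 0 in some library were Tek (intact replicate 1), Tie1 (intact replicate 0) and Kcnj8 (intact replicate 1) of the endothelial and mural list, Mrc1 of the microglial list and Rax of the ependymal list. The part of these cells in the differences of genes that were highest in replicate 0 was not tested. Among such genes were Ednrb, Rn45s, Gabrb2, Slc12a2, Cpe, Calu, Col1a2, Adra2a and Atf3, and also Gata2 and Arap3, described below. Without gonadectomized replicate 0 the log2 difference of Rn45s was 0.89.

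**Figure D4:**
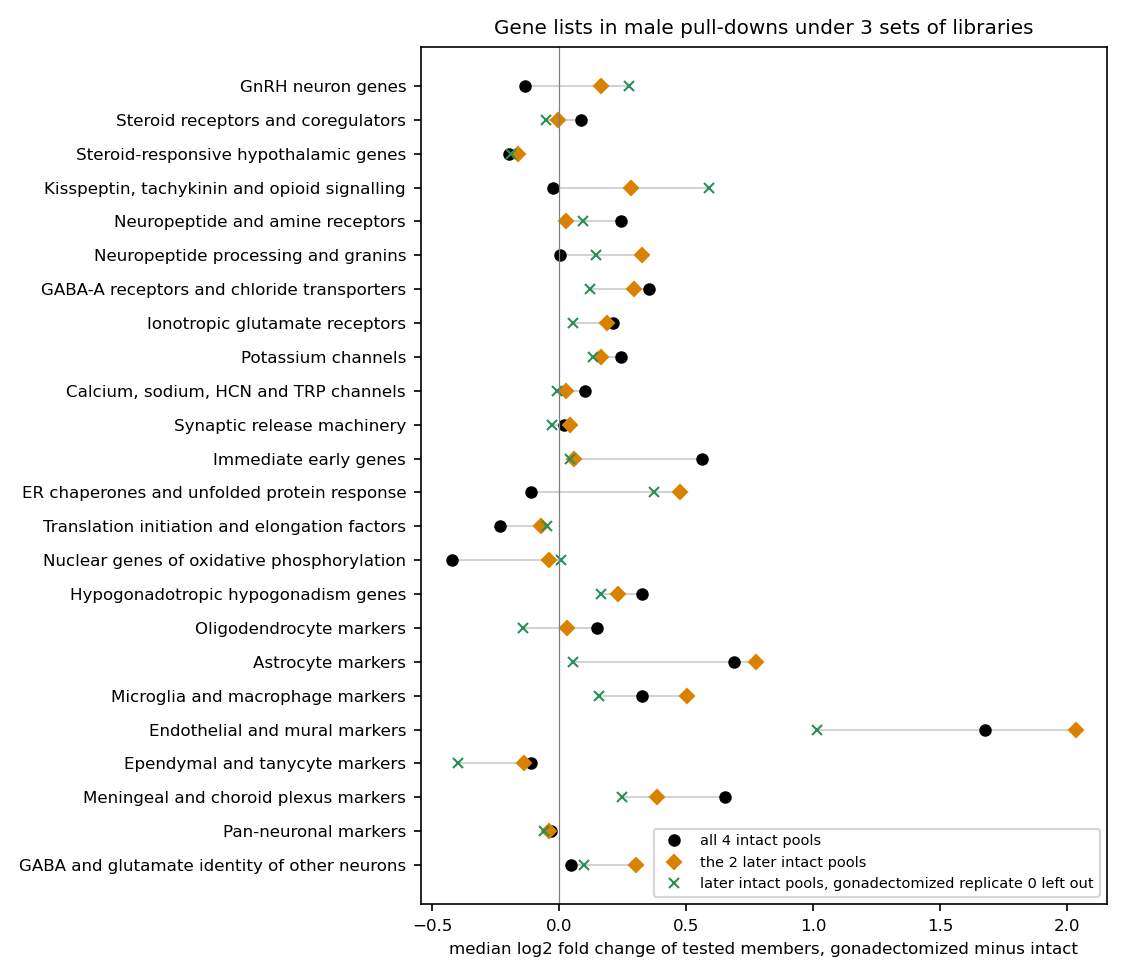
Median log2 difference after castration (x axis) of the tested members of each gene list (y axis) against all 4 intact pools, against the 2 later intact pools, and against the later pools with gonadectomized replicate 0 left out. The chaperone list moves from -0.11 to 0.48 and 0.37, and the astrocyte list from 0.69 and 0.78 to 0.06.

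The supernatants of the same pools were compared next, to place the pull-down differences beside the surrounding tissue. There edgeR called 0 of 16360 genes (446 at an unadjusted p under 0.05, 2.73%). Lamb3 averaged 11.2 ± 1.48 CPM (SD, n = 4) in intact and 6.37 ± 0.39 CPM (n = 3) in gonadectomized supernatants (-0.81), and Kiss1 averaged 2.89 ± 0.81 and 0.70 ± 0.15 CPM (-2.04). Both were lower in each fraction. Pgr (-0.53), Nts (-0.64) and Cited1 (-0.63) were also lower in the supernatant at an unadjusted p under 0.05. Of the 20 genes above, 8 of the 10 higher and 8 of the 10 lower had the same sign in the supernatant. These signs were counted whatever the size, and some differences were near 0 (Nt5m -0.006 ± 0.12, Ppcs -0.02 ± 0.12). The share of all genes with the same sign was not counted, so the agreement is a description.

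The difference between fractions was tested as an interaction over all 26 libraries, and edgeR called 0 of 16713 genes (1364 at an unadjusted p under 0.05, 8.16%). This fit gave each gene 1 dispersion for both fractions (common coefficient of variation 0.397) and took the fractions of a pool as independent. Its errors may therefore be too small for the pull-downs, whose own coefficient was 0.560. The lowest p belonged to Gata2, a zinc finger transcription factor (chr6:88193891-88207032). It was at 0.024, 0.10, 0.11 and 0.22 CPM in intact male pull-downs and at 7.60, 2.56 and 2.13 CPM in gonadectomized ones, but averaged 1.84 ± 0.55 and 2.37 ± 0.84 CPM in the corresponding supernatants. The intact male pull-downs were the low ones. The interaction was 4.75 ± 0.88 (SE; adjusted p 0.249). Arap3, a regulator of small GTPases in endothelium, followed with 4.00 ± 0.82 (adjusted p 0.429), at 0.028 to 0.17 CPM in intact and 1.44 to 1.91 CPM in gonadectomized pull-downs. The third gene by p was a predicted gene and is not named.

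Ovariectomy was compared with castration over the 13 pull-downs of both sexes, and edgeR called 0 of 16160 genes for a difference between the sexes (535 at an unadjusted p under 0.05, 3.31%). The 3 genes with the lowest p were Mmp16, Gata2 and Rn45s. Mmp16, a membrane metalloprotease gene, stood at 11.5, 6.93, 17.98 and 14.5 CPM in intact and 21.3, 23.4 and 24.8 CPM in gonadectomized males, whereas female means were 17.4 CPM intact and 5.97 CPM ovariectomized. The directions were opposite, with a difference of 2.41 ± 0.54 (SE; adjusted p 1.00). Gata2 averaged 1.97 CPM in intact and 2.26 CPM in ovariectomized females, so that the intact male pull-downs were again the low group. Kiss1 gave -2.07 in males and -3.07 in females, where it averaged 24.04 CPM intact and 2.86 CPM after ovariectomy. Fkbp5 (-0.81 in females) and Nts (-1.07) also had the same sign in both sexes, as did 7 of the 10 higher and 7 of the 10 lower genes above. Signs were counted whatever the size of the difference, such as 0.015 ± 0.29 for Slc38a2 in females. Intact female replicates 0 and 1 also carry early library numbers (6 and 8). Replicate 2 is numbered 21 and the ovariectomized pools 23, 24 and 25. Gnrh1 stood at 20723, 16734 and 3140 CPM in intact female replicates 0, 1 and 2. The part of early pools in the shared signs was not tested.

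**Figure D5:**
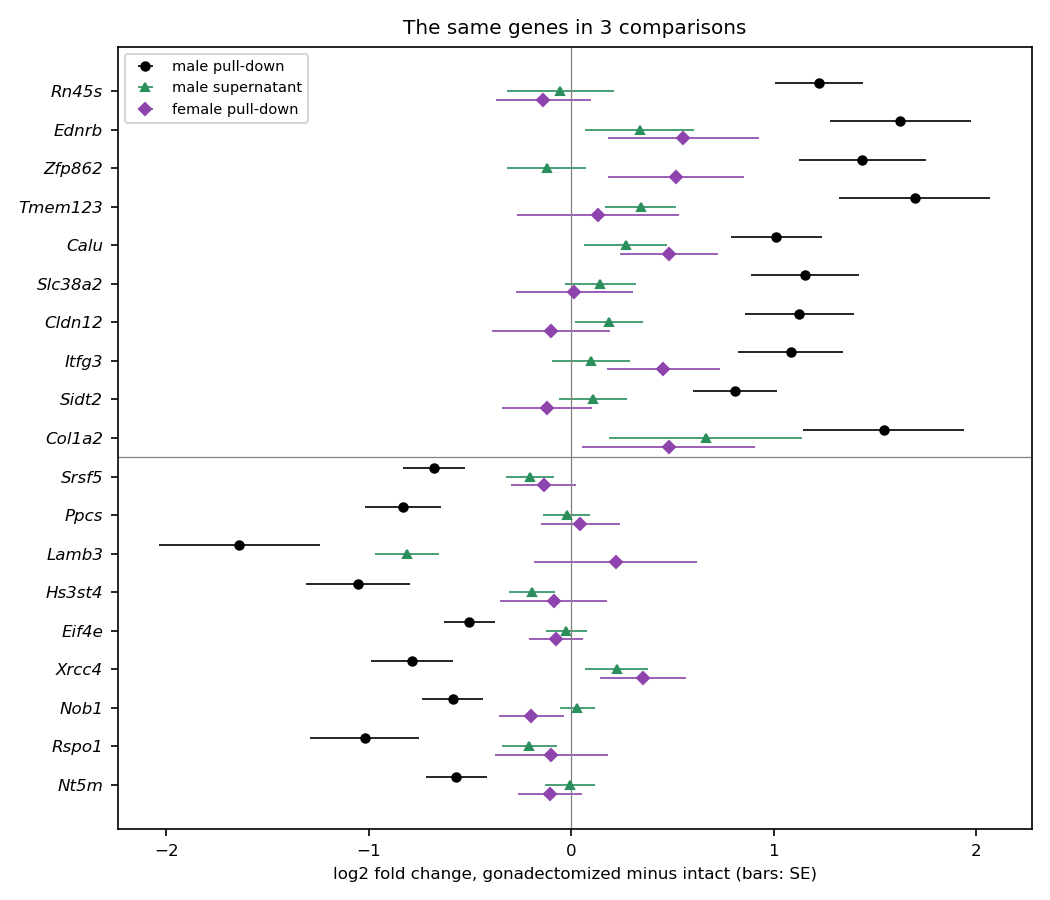
Log2 difference of gonadectomized minus intact (x axis; bars are SE) of 19 of these genes in the male pull-down, the male supernatant and the female pull-down. The genes were chosen in the male pull-down, so their larger size there is a description; Lamb3 is lower in both male fractions (-1.64 and -0.81) and not in the female pull-down (0.22).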

How the data were processed

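Ribosome-bound RNA (translating ribosome affinity purification) was measured in pools of mice, so replicates are separate pools. The authors deposited 1 table of estimated counts (expected counts per gene, not normalized), and per the submitters' processing notes used mm10 with Cufflinks, Cuffdiff (2.1.1), TopHat2 (2.0.9) and Bowtie2 (2.1.0). Neither the annotation nor the treatment of multi-mapping reads is given in the sources used here, and the SMART-Seq kit named in the labels does not mark strand, so overlapping and antisense genes and close copies are uncertain. Counts were rounded. edgeR 4.0.16 in R 4.3.3 was run with TMM, filterByExpr (minimum count 10, total 15) and a two-sided quasi-likelihood test, Benjamini-Hochberg adjusted over all tested genes, called at 0.05. The fit held 13 pull-down libraries in 4 groups, and gonadectomized and intact males were contrasted; interactions used 26 libraries (fraction) or 13 (sex). limma 3.58.1 and DESeq2 1.42.0 were alternatives. With 3 pools against 4, a two-sided exact permutation test cannot go below 0.0571 and was not used.

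Male pull-downs held 32993945 to 47073710 counts, without molecular identifiers, so the precision that depth gives covers counting error alone. No replicates agreed within sampling noise (lowest chi-square per degree of freedom 36.1). Replicate numbers did not pair the 2 groups. Named genes are the 10 with the lowest p per direction averaging at least 5 CPM, since none was called, predicted genes left out, with the 3 lowest in each interaction; list members could always be named, and the DESeq2 counts by level were made after their values were seen. The contrast, the 26 gene lists (560 genes, 558 matched, 7 through a synonym, 550 tested) and the tests were chosen with earlier results of these data known. Positions come from GENCODE on mm10 and promoters from RefSeq GRCm38.p6. Genes of cytosolic ribosomal proteins and of the mitochondrial genome were not used here, and 1 of the 20 genes chosen by p and some list members are not reported here by name. The procedure was tested on simulated data.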

Additional observations from a re-analysis of the deposited data

Results flagged for a closer look

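In 5 of 99 sets of 4 intact pull-downs examined (genes named above, marker sums and the total count), 1 pool lay far from the other 3 by Dixon's criterion, about the share that chance gives (1 in 20). Hs3st4 was 27.9 CPM in intact replicate 1, where the other intact pools lay between 19.3 and 20.03 CPM. Il17rd was 0.555 CPM in intact replicate 2 and 0.157 CPM at most in the others. Intact replicate 3 was highest in Atf3 (0.725 CPM, next 0.0833), in the astrocyte gene Aldh1l1 (17.6 CPM, next 12.4) and in Vim (46.2 CPM, next 28.3). The groups of 3 gonadectomized pools are too small for this criterion, so that gonadectomized replicate 0 was not examined by it.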

How the results depend on the processing

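The castration effect in the pull-down gave 0 called genes in edgeR with the size factors of DESeq2, no filter, a minimum of 5 CPM, the 7 male libraries alone, a term for library number or the later libraries, and 0 in limma voom. DESeq2 gave 24 and, on the later libraries alone (chosen after seeing the data), 44; the cause was not tested. Leaving out 1 pool gave 0 to 1 called genes (Rn45s, without gonadectomized replicate 1) and 805 to 2243 at an unadjusted p under 0.05. Of the 378 values of named genes and Gnrh1 under alternatives, 357 kept direction and side of the threshold, 17 passed it, and 4 reversed. All 4 were Gnrh1: 0.58 on the later libraries, 0.68 with a term for library number and 0.57 in DESeq2 on the later libraries. The last was 0.82 on the later libraries without gonadectomized replicate 0. In these settings fewer intact pools enter or their level is fitted apart. The named genes were chosen by this contrast with their groups wholly apart, so their kept direction is no separate support. The replicate number as a block gave 0 called genes and 2113 at an unadjusted p under 0.05; same-numbered pools of both groups correlated at -0.04, 0.01 and 0.06, and 1 of 3 gonadectomized pools correlated best with its own number, so the numbers pair nothing. The pool as a block in the test between fractions gave 0 (1114 at an unadjusted p under 0.05). The supernatant, fraction and sex contrasts gave 0 under every alternative run.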

Other observations

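Across 15961 genes, the castration difference in the pull-down was set against the female enrichment of the pull-down over the supernatant. Spearman rho was -0.185 with all 4 intact pools and 0.004 with the later ones (genes are not independent replicates). Early intact male pools thus enter this relation. The female pull-downs are not in the contrasted groups but were part of the same fit. The castration difference and the female enrichment therefore do not come from wholly separate libraries. Some female libraries also carry early numbers, and their part in this relation was not tested. Pan-neuronal markers included 3 of 20 lower at an unadjusted p under 0.05 (4.92% of all genes), among them Gap43, a growth cone protein gene (-0.53), and Stmn2, a microtubule regulator (-0.47). Against the later intact pools Gap43 gave -0.20 and Stmn2 -0.10. Gap43 stood at 1923, 1838, 1218 and 1241 CPM in intact and 932, 1224 and 1064 CPM in gonadectomized pools, so that the early intact pools were the high ones. Slc17a6, the vesicular glutamate transporter VGLUT2, stood at 55.0, 47.6, 47.0 and 42.5 CPM against 64.6, 67.6 and 67.9 CPM, above all intact pools (0.47 ± 0.18; edgeR adjusted p 0.525).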
